A study of Mus musculus with 19 samples.

Results

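TEAD peaks that appeared in mouse liver within 3 days of YAP induction were examined by ChIP-seq (chromatin immunoprecipitation followed by sequencing), as a list of 36446 peaks from induced livers set against a list of 5695 peaks from control livers. A peak of induced livers was called gained when no control peak overlapped it by at least 1 bp, and shared otherwise. This gave 30782 gained and 5664 shared peaks. Induced livers (3 d) came from C57BL/6 mice labelled ROSA26-rtTA-IRES-EGFP; tetYAP that ate doxycycline food for 3 days, 3 samples. Control livers (WT) came from C57BL/6 mice labelled ROSA26-rtTA-IRES-EGFP; WT that ate the same food for 7 days, 3 samples. Both groups therefore received doxycycline, but for unequal times, so the effects of genotype and of feeding time cannot be told apart. According to the study's methods, an albumin-driven Cre recombinase released the doxycycline-dependent activator in the mouse line, which directs an activated YAP allele to hepatocytes, and whole liver was used. No age is given in the labels. The labels name the antibody only as TEAD, and the methods describe it as raised to TEAD4 with recognition of TEAD1 and TEAD3, so a peak cannot be ascribed to a single family member. A peak list holds no RNA, so the liver label could not be checked against marker transcripts. The authors merged the 3 samples of each group before they called peaks, so there is 1 list per group, no difference has a replicate check and no p-value is given.

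TEAD1 to TEAD4 are the DNA-binding factors through which YAP, a coactivator without a DNA-binding domain, reaches chromatin. The Hippo kinases hold YAP in the cytoplasm, and when they are off YAP enters the nucleus, joins TEAD and raises genes of growth and of the cytoskeleton. TEAD recognises the MCAT element, whose core is GGAATG, and occupies promoters as well as distant enhancers. In the liver this axis sets organ size and hepatocyte identity.

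The genomic sequence under the summits of 9 peaks is given as examples of early sites with and without the letters TEAD is known to read. Each is 101 bases of the plus strand, 50 on either side of the summit, from the NCBIM37 (mm9) assembly, and capitals mark every match to the TEAD core GGAATG on either strand (CATTCC on the other strand). The first 6 are among the 12 gained peaks of highest pileup and lie between genes or in an intron, the next is the gained promoter peak of Fgb, and the last 2 are shared peaks given for comparison. The intron summit labelled Exph5 lay 15157 bp upstream of the nearest Exph5 start.
Gm10295, 112792 bp upstream (chr7:78609113-78609213): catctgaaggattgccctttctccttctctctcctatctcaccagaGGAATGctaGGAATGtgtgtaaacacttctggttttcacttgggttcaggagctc
Hs6st1, 51092 bp upstream (chr1:36074103-36074203): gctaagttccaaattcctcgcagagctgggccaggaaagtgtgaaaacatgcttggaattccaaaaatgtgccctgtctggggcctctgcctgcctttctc
Exph5 intron (chr9:53133982-53134082): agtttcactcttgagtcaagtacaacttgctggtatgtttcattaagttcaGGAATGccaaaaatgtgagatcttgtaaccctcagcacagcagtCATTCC
Gm5530, 24539 bp downstream of the start (chr1:81714955-81715055): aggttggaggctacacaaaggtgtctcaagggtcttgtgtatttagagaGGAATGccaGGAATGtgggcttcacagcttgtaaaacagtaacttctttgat
Bmp4, 126768 bp upstream (chr14:47137062-47137162): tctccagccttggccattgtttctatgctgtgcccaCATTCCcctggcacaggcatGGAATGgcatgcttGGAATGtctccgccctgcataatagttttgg
Egfr, 68454 bp upstream (chr11:16583702-16583802): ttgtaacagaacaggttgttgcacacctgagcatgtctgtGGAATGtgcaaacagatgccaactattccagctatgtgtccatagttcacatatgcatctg
Fgb promoter (chr3:82853728-82853828): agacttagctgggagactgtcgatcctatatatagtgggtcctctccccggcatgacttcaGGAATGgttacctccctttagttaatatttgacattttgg
Pelo promoter, shared (chr13:115880895-115880995): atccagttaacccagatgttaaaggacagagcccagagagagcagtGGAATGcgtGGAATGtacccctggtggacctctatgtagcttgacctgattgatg
Cyr61 promoter, shared (chr3:145312982-145313082): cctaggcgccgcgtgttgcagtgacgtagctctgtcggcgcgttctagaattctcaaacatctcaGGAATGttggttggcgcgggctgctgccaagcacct

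The summits near Gm10295 and Gm5530 and at the Pelo promoter each lay on 2 cores in the same direction with 3 bases between them. The Bmp4 window held 3 cores and the Egfr and Fgb windows 1 each. The Hs6st1 window held no core in these letters, although its peak ranked 23 of the whole list. Of such windows at the 12 gained peaks of highest pileup, 8 held a core and 4 held none, those of Hs6st1, Sfi1, Lrig1 and Prrg4, so the sequences shown hold a larger share with a core than the 12 do.

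Gained peaks made up 84.5% of the 3 d list (95% Wilson interval 84.1 to 84.8, over peaks only and for counting error only). They were mostly low. Pileup, the number of extended fragments over the summit, had a median of 33 in gained peaks (middle 50% of values 28 to 43) against 77 in shared peaks (54 to 109). Fold enrichment, the pileup divided by the local background, had a median of 5.1 in gained and 11.8 in shared peaks. Ranked by pileup within the 3 d list, the median gained peak stood at percentile 41.7 and the median shared peak at percentile 89.6.

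The share of gained peaks fell from each decile of pileup to the next higher one. In the lowest decile, with pileups of 20 to 26, 98.9% of peaks were gained, and in the highest decile, with pileups of 79 to 358, 24.4% were (23.0 to 25.8), which was 889 peaks. Of the 1000 highest peaks 107 were gained, and of the 100 highest 6 were. When only as many of the strongest 3 d peaks were kept as the WT list holds, 36.1% were gained. Nearly all WT peaks were found again, 5602 of 5695 (98.4%, 98.0 to 98.7).

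**Figure D1:**
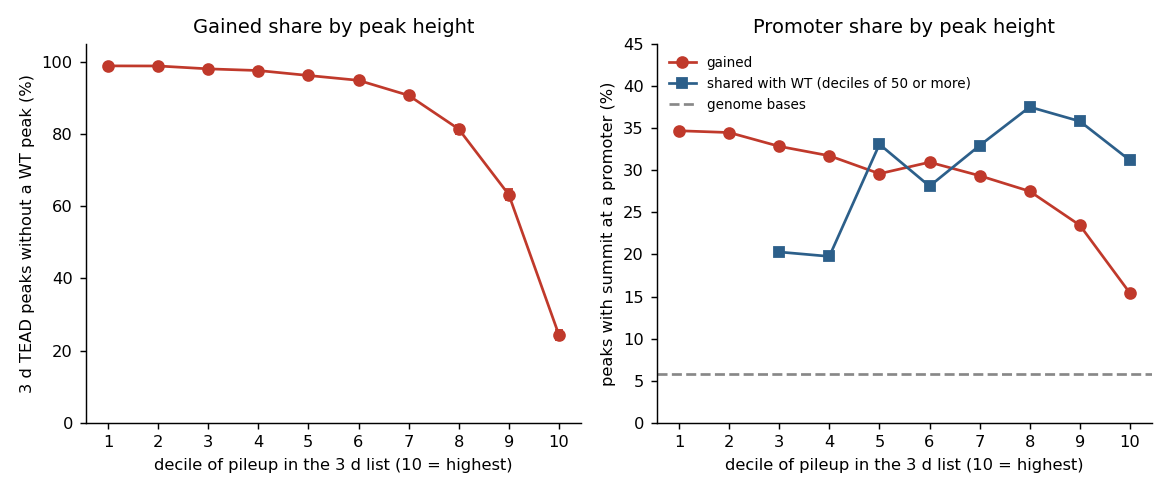
Left, the share of 3 d TEAD peaks without an overlapping WT peak, in deciles of the 3 d list ordered by pileup, with 95% Wilson intervals. It falls from 98.9% in the lowest to 24.4% in the highest decile. Right, the share of gained and of shared peaks with their summit at a promoter in the same deciles, beside the 5.76% of genome bases that are promoter. Gained peaks go from 34.7% to 15.4%, whereas shared peaks of the highest decile stand at 31.2%.

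The lists were not equally sensitive, and these values stand beside every count of gained peaks. The 3 d library had 1.56 times as many tags as the WT library (55032002 against 35168765), and the caller extended tags to 207 bp at 3 d and to 400 bp in WT. At the same 5602 sites the fold enrichment was a median 2.25 times higher at 3 d than in WT (middle 50% 1.77 to 2.78, median fold 11.9 against 5.05) and was higher at 98.3% of them. The part of these differences in the gain was not tested. With the 3 d list rescaled to the WT tag number, 83.7% of peaks were gained. The 187 shared sites with a 3 d pileup of at least 209, the value of the 12th gained peak, had a median WT fold enrichment of 14.6 and none lower than 4.56. Shared sites were chosen for having a WT peak, so these values cannot show how high sites without one would have scored in WT. In whole liver, binding in more cells and more binding per cell cannot be told apart.

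The 12 gained peaks of highest pileup were led by 2 intergenic sites, at chr7:78608553-78609479, 112792 bp upstream of the predicted gene Gm10295 (pileup 308, 50.6-fold), and at chr1:36073828-36074548, 51092 bp upstream of Hs6st1 (pileup 302, 49.6-fold), which encodes a heparan sulphate sulphotransferase. An intron peak 15157 bp upstream of the nearest start of Exph5, an effector of the small GTPase RAB27, reached a pileup of 281 (37.1-fold). An intergenic site near Gm5530 reached 277 (45.5-fold). These 4 ranked 21, 23, 39 and 44 in the 3 d list.

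Of the others, 3 lay between genes and upstream of the nearest protein-coding gene. A peak 42922 bp upstream of Lrig1, a transmembrane inhibitor of receptor tyrosine kinases, had a pileup of 250 and was enriched 36.1-fold. One 68454 bp upstream of Egfr, the receptor of epidermal growth factor, had a pileup of 220 and 31.8-fold enrichment. One 126768 bp upstream of Bmp4, a ligand of the TGF-beta family, had a pileup of 229 and 37.6-fold enrichment, although E130120K24Rik began nearer to it, as BX255277.1 did to the Egfr site. The 3 genes were the nearest protein-coding ones by distance only, and no contact was measured.

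The rest of the 12 were an intron peak of Bend3 (pileup 220), a peak 1262 bp upstream of Ect2, an exchange factor needed for cytokinesis (pileup 218), an intron peak of Prrg4 (pileup 214), a peak 69609 bp from the start of Speer2 (pileup 209), and a peak 288 bp upstream of Sfi1 (pileup 256). The Sfi1 peak was enriched only 1.84-fold over its local background, the lowest fold of all gained peaks and the only one below 2. All 12 overlapped a TEAD peak of livers induced for 7 days and a YAP peak of the same livers.

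Gained peaks did not sit in one kind of place. By summit, 30.5% were at promoters (the interval that begins 2000 bp before an annotated start and ends 1000 bp after it; 30.0 to 31.0), 37.3% in introns and 29.5% between genes. Promoters cover 5.76% of the bases, introns 33.8% and intergenic sequence 58.2%. Shared peaks were at promoters in 32.7% (31.5 to 33.9). Coding exons, untranslated regions and exons of non-coding genes together held few summits of either class, each under 2% of them. Of the gained summits 27.0% were within 1000 bp of a start and 3692 summits were over 50000 bp from any.

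The promoter share of gained peaks fell with height. Among gained peaks the promoter share went from 34.7% in the lowest decile of pileup to 15.4% in the highest (13.2 to 18.0, 137 of 887), whereas 31.2% of the shared peaks in that highest decile were at promoters (29.5 to 32.9). At this height the intervals of the classes did not overlap. In deciles 8 and 9 the gained share was also lower, at 27.5 and 23.5% against 37.5 and 35.8% of shared peaks. Gained and shared peaks were closer in the middle, at 29.6 and 33.1% in decile 5 and 31.0 and 28.1% in decile 6. In decile 7 they stood at 29.4 and 32.9%. In deciles 3 and 4, with 69 and 86 shared peaks, gained shares were higher, at 32.8 and 31.7% against 20.3 and 19.8%. Introns took 43.9% and intergenic sequence 37.9% of the high gained peaks, against 34.6% and 31.9% of the high shared peaks.

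The median gap from a gained peak to the nearest WT peak was 56822 bp, and 47.3% of gained peaks had one within 50000 bp. No other set of sites was measured for comparison, so whether these distances are short was not tested. At the edge of the rule, the shared peak with the least overlap, near Osbpl11 at chr16:33192156-33192413, met a WT peak by 1 bp and had a pileup of 28. The gained peak closest to a WT peak, near Irf1 at chr11:53575381-53576442, was 2 bp away and had a pileup of 34.

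The autosomes held 9.19 (chromosome 14) to 19.3 (chromosome 19) gained peaks per Mb, and the X chromosome 1.92. WT peaks were as uneven, at 1.71 to 3.24 per Mb on autosomes and 0.27 on X, so that 88.2% of the X peaks were gained, beside 82.4 to 86.5% on autosomes. Per protein-coding gene, X held 0.343 gained peaks and the autosomes 0.913 to 1.90.

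The TEAD core was counted within 100 bp of each summit, as GGAATG on either strand. It was in 26.7% of gained peaks (26.2 to 27.2) and in 50.8% of shared peaks (49.5 to 52.2). All consecutive genome windows of the same 201 bp held it in 10.9%, and windows 1000 bp to the side of the same summits held it in 10.3% for gained and 10.98% for shared peaks. The core was thus more frequent under gained summits than beside them, but less frequent than under shared summits.

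The share with a core rose with height in gained peaks. In the lowest decile 16.8% of gained peaks held the core (15.6 to 18.0) and in the highest decile 56.8% did (53.5 to 60.0), close to the 60.2% of shared peaks in the same decile (58.4 to 62.0), where the intervals overlapped. In decile 4, which held only 85 shared peaks, 51.8% of shared (41.3 to 62.1) and 23.1% of gained peaks (21.7 to 24.5) had it, and in decile 3 34.8 and 20.4%. In deciles 5 and 6 the classes were closer, with the core in 26.3 and 26.9% of gained peaks. Shared peaks there held it in 31.1% (23.9 to 39.4) and 30.3% (24.1 to 37.2), intervals that hold the gained shares. In deciles 7, 8 and 9, shared peaks held it in 37.7, 41.4 and 46.5%, and gained peaks in 29.3, 35.3 and 42.1%. Away from promoters the share in gained peaks was 29.9% and at promoters 19.3%. The longer core GGAATGT, which contains the first, was in 11.995% of gained and 28.5% of shared peaks, beside 2.72% of genome windows.

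**Figure D2:**
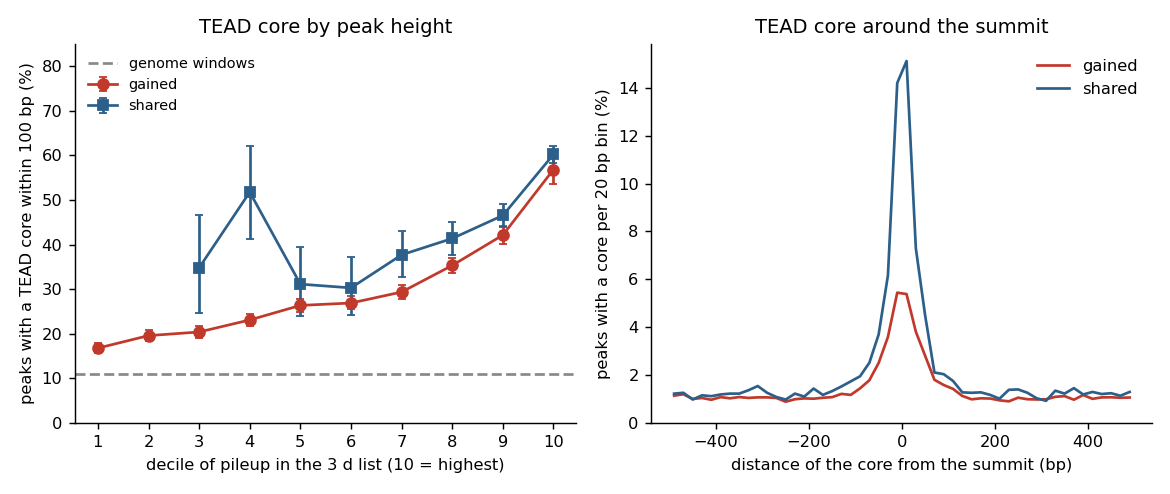
Left, the share of gained and of shared 3 d peaks with a TEAD core within 100 bp of the summit, in deciles of pileup with at least 50 peaks (95% Wilson intervals), with the 10.9% of genome windows as a dashed line. Right, the share of peaks with a core in each 20 bp bin around the summit. Gained peaks rise from 16.8% to 56.8%, and both curves on the right peak within 20 bp of the summit, at 5.44% for gained and 15.1% for shared peaks.

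Where a gained peak had a core, the nearest lay a median 26.5 bp from the summit, against 16.5 bp in shared peaks and 13.5 bp in gained peaks of the highest decile. At least 2 cores were in 3.22% of gained peaks (3.03 to 3.43) and 8.06% of shared peaks (7.38 to 8.80). In the highest decile the shares were 11.05 and 10.4%.

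The pair of cores 3 bases apart that is visible in the printed sequences was then counted in every window, a spacing chosen after those sequences were seen. The letters GGAATGNNNGGAATG on either strand were under 32 gained summits (0.104%, 0.0737 to 0.147) and 21 shared ones (0.371%, 0.243 to 0.567), and in 0.00484% of genome windows. For each other spacing from 0 to 20 bases in the same direction, 2 to 13 gained peaks and at most 8 shared peaks held a pair. In gained peaks of the highest decile the 3-base pair was in 0.902%, which was 8 of 887 peaks. The other high ones included an intergenic peak at chr6:37680356-37681001 (pileup 200, 32.8-fold) and one near Gm16619 at chr16:49814569-49814959 (pileup 102, 16.7-fold). The start nearest to the former, that of Gm15487, was over 50 kb away.

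Letters of other liver factors were searched in the same windows, on both strands. The HNF4A letters CAAAGTCC were in 3.84% of gained peaks away from promoters, in 3.44% of shared ones and in 0.755% of genome windows away from promoters. The forkhead letters TGTTTAC were in 6.55, 6.93 and 3.02%, and the C/EBP letters TTGCNNAA in 16.5, 17.4 and 9.49%. For these 3 the intervals of gained and shared peaks overlapped. The AP-1 letters TGANTCA were in 7.81% of gained and 8.35% of shared peaks away from promoters, beside 5.998% of genome windows there, but at promoters in 4.71% of gained peaks (4.30 to 5.15), beside 5.41% of genome windows in promoters. At promoters, the ETS letters CCGGAAG were in 8.85% of gained and 9.02% of shared peaks and in 1.38% of genome windows in promoters, and the GC box GGGCGG in 29.1, 34.04 and 7.12%. Gained windows had a median 48.3% G and C, shared ones 49.3% and genome windows 41.8%, and the part of base composition in these shares was not tested. A match is a string of letters and not evidence that a factor was bound.

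Promoters were then assigned to genes. Of 22367 protein-coding genes, 6757 (30.2%) had a newly occupied promoter, that is at least 1 gained peak overlapping it and no WT peak, and 1944 (8.69%) had a promoter already occupied in WT. Among the latter, 780 also had a gained peak in the promoter. The highest gained peak of a newly occupied promoter had a median pileup of 35. After the strongest peaks described above, the 3 highest newly occupied promoters were those of BC057079 (pileup 188, 29.3-fold), Mccc1, a subunit of the enzyme that breaks down leucine (pileup 166, 27.3-fold), and Tsg101, a component of the endosomal sorting machinery (pileup 148, 24.3-fold). Any annotated start counted as a promoter. All 3 of these peaks lay inside the annotated gene, at an internal start and not at the outermost start of the gene. Within 50 kb of a start, 70.3% of genes had a gained peak, and 38.5% had one with no WT peak in that range. With shares this large, single genes near a gained peak are common, and the lists below are read against these backgrounds.

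**Figure D3:**
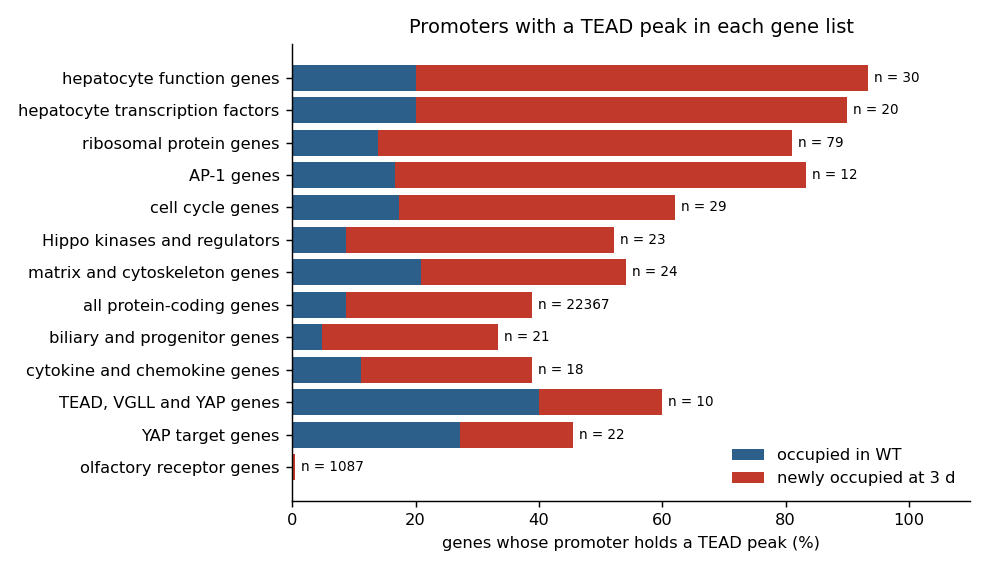
Share of genes in each list with a TEAD peak at the promoter, split into promoters occupied in WT and promoters newly occupied at 3 d; n is the number of genes. Newly occupied promoters range from 0.46% of olfactory receptor genes to 73.3% of hepatocyte function genes, beside 30.2% of all protein-coding genes.

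Hepatocyte genes were at the upper end. Of 30 hepatocyte function genes, 22 had a newly occupied promoter (73.3%) and 6 were occupied in WT, which left Otc and F9, both on the X chromosome, without a promoter peak. The highest were Fgb, the beta chain of fibrinogen (pileup 88, 8.9-fold), Cyp3a11, a drug-metabolising cytochrome (pileup 87, 11.5-fold), Ttr, the thyroxine carrier transthyretin (pileup 63), Cyp8b1, an enzyme of bile acid synthesis (pileup 61), and Fbp1, an enzyme of gluconeogenesis (pileup 59). Alb itself was occupied in WT. The median number of gained peaks within 50 kb was 8.5 for this list and 2 for all genes.

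Of 20 hepatocyte transcription factors, 14 (70%) had a newly occupied promoter, 4 were occupied in WT, and Prox1 and Cebpb had no promoter peak. Hnf4a, the nuclear receptor central to hepatocyte identity, had the highest gained promoter peak (pileup 85, 11.7-fold, 1631 bp upstream of the nearest start) and 18 gained peaks within 50 kb with no WT peak there. Nr1h4, the bile acid receptor FXR, followed at 54, then Foxa2 at 47, and Tbx3 reached 39. The Foxa2 peak met the promoter only with its edge. A TEAD core was under 9 of 37 gained peaks in newly occupied promoters of hepatocyte function genes (24.3%, 13.4 to 40.1), 4 of 25 of hepatocyte transcription factors (16.0%, 6.40 to 34.7) and 19.04% of those of all genes.

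Genes of the ribosome, which every cell uses, also stood above the background. Of 79 ribosomal protein genes, 53 (67.1%) had a newly occupied promoter and 11 were occupied in WT. Rpl24 (pileup 87, 14.3-fold), Rpl7 (pileup 71), Rpl18 (pileup 59) and Rpl17 (pileup 54) were among the highest. At the other end, 5 of 1087 olfactory receptor genes (0.46%) had a newly occupied promoter and none was occupied in WT. These 5 were Olfr95 (pileup 95), Olfr1160 (88), Olfr90 (32), Olfr52 (29) and Olfr1367 (28). No RNA was measured in these lists, so the level of each gene was not set beside its peaks.

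The genes of the AP-1 dimers, which act with TEAD at many enhancers, had 8 newly occupied promoters of 12 (66.7%). Junb (pileup 51), Jund (49), Mafg (47) and Jun (37) led, with Mafk (49), whose promoter was also occupied in WT. Of 29 cell cycle genes 13 (44.8%, 28.4 to 62.5) were newly occupied, an interval that holds the 30.2% of all protein-coding genes. The replication helicase subunits Mcm3 (pileup 80, 13.1-fold) and Mcm4 (71), the kinases Cdk1 (64) and Cdk4 (45) and the clamp Pcna (43) stood highest. Other genes of the list, Mki67, Plk1 and Bub1 among them, had no promoter peak.

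Lists of other liver cell programmes lay near the background. Of 21 biliary and progenitor genes 6 (28.6%) were newly occupied: Krt18 (pileup 45), Igf2 (44), Prom1 (39), Afp (33), Hes1 (29) and Sox4 (26). Notch2 was occupied in WT and also had a gained promoter peak (37), whereas the biliary markers Sox9, Krt19, Krt7 and Epcam had no promoter peak. Of 24 matrix and cytoskeleton genes 8 (33.3%) were newly occupied, led by Tpm1 (40), Actg1 (38), Fn1 (35), Thbs1 (33) and Actb (30). Of 18 cytokine and chemokine genes 5 (27.8%) were, with Il34, a ligand of the macrophage receptor CSF1R, far ahead at a pileup of 84 (12.7-fold), followed by Lif (35), Cxcl1 (34), Cxcl16 (33) and Csf1 (26).

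Known YAP target genes were more often occupied in WT than the 8.69% of all protein-coding genes, as were most other lists. Of 22 YAP targets, 6 (27.3%, 13.2 to 48.2) had a promoter occupied in WT. That interval holds the 20.8% of matrix and cytoskeleton genes and the 20% of hepatocyte function genes, but not the 4.76% of biliary and progenitor genes. A newly occupied promoter was found in 4 (18.2%, 7.31 to 38.5), an interval that holds the 30.2% of all protein-coding genes. Promoters occupied in WT are taken first. The 6 were Ctgf and Cyr61, secreted matricellular proteins, Amotl2 and Lats2, which restrain YAP, Nuak2, a kinase, and Ptpn14, a phosphatase that binds YAP. Their promoter peaks had a higher fold enrichment at 3 d than in WT, as 98.3% of all shared sites did. Fold enrichment went from 10.1 in WT to 43.5 at 3 d for Ctgf, from 11.6 to 28.1 for Cyr61, from 11.2 to 28.1 for Lats2, from 23.4 to 48.6 for Amotl2, from 8.46 to 24.7 for Nuak2 and from 6.91 to 15.9 for Ptpn14. The Ctgf ratio of 4.30 was above the middle 50% of all shared sites (1.77 to 2.78), the Nuak2 ratio of 2.92 was slightly above it, and the other 4, at 2.08 to 2.51, were within it.

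The 4 newly occupied targets had modest peaks: F3, tissue factor (pileup 44), Gadd45a, a stress response gene (43), Arhgef17 (38) and Crim1 (26). Gained peaks were present within 50 kb of 20 of the 22 genes (90.9%), beside 70.3% of all protein-coding genes. Other lists ranged from 13.7% of olfactory receptor genes to 100% of hepatocyte transcription factors, with ribosomal protein genes at 93.7%. The 2 YAP targets without any 3 d peak were Fjx1 and Foxf2. The highest gained peak within 50 kb of a YAP target was 32984 bp downstream of an Amotl2 start (pileup 161, 23.8-fold), next to shared peaks that reached 319. A peak 6293 bp from a Crim1 start had a pileup of 114 (18.7-fold). Igfbp3 (pileup 77), Tgfb2 (54), Ankrd1 (43), Rbms3 (42), Axl (36), Dock5 (35) and Nt5e (33) had gained peaks but neither a promoter peak nor a WT peak within 50 kb. Asap1 (70), Ccdc80 (51) and Myof (38) had gained peaks beside WT peaks away from the promoter.

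**Figure D4:**
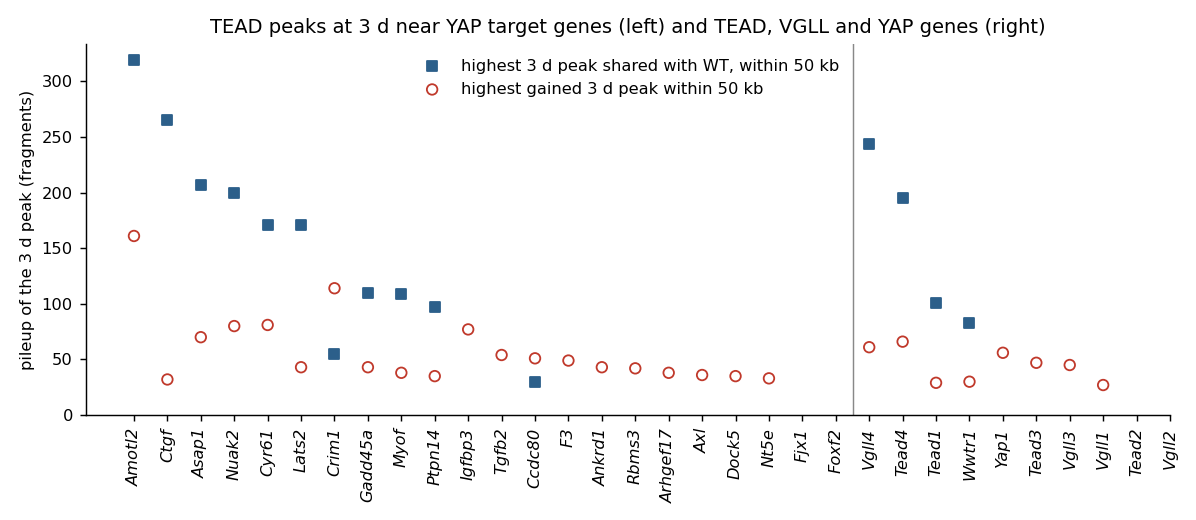
Pileup of the highest 3 d TEAD peak within 50 kb of each gene, filled squares for peaks shared with WT and open circles for gained peaks, with YAP target genes left of the line and the TEAD, VGLL and YAP genes right of it. Shared peaks reach 319 at Amotl2 and 265 at Ctgf, and Crim1 and Ccdc80 are the 2 genes with both kinds in which the gained peak is the higher.

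The factors themselves were covered in part. Of the 10 genes for TEADs, the competing VGLL cofactors, YAP and its paralogue TAZ, 4 promoters were occupied in WT and 2 were newly occupied. The 4 were 40% (16.8 to 68.7), beside 8.69% of all protein-coding genes. The 2 were 20% (5.67 to 51.0), an interval that holds the 30.2% of all protein-coding genes. With peaks of at least 5-fold only, 3 were newly occupied and 3 occupied in WT. Tead4 went from 9.70-fold to 32.0-fold at its promoter and Tead1 from 4.52-fold to 14.6-fold, ratios of 3.30 and 3.23 that were above the middle 50% of shared sites. Vgll4, a corepressor of TEAD, went from 10.1-fold to 25.9-fold and Wwtr1, which encodes TAZ, from 6.65-fold to 13.6-fold. Vgll4 also had 16 gained peaks within 50 kb. The newly occupied promoters were those of Yap1 (3 gained peaks, the highest at 56, 7.67-fold, 41 bp upstream of a start) and Vgll3 (45). Tead3 (pileup 47) and Vgll1 (27) had gained peaks only away from the promoter, and Tead2 and Vgll2 had no peak within 50 kb.

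Among 23 Hippo kinases and regulators, 10 promoters were newly occupied (43.5%, 25.6 to 63.2) and 2 were occupied in WT. The interval holds the 30.2% of all protein-coding genes. Among the highest were the kinase cofactor Mob1a (pileup 45, 7.39-fold), the upstream kinase Taok1 (43), Amot, which tethers YAP (34), and the kinase Taok3 (33). The core kinases Stk3 and Stk4 had promoter peaks of 30 and 25. With peaks of at least 5-fold only, 7 of the 23 (30.4%) were newly occupied, beside 22.4% of all protein-coding genes.

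When each gained peak was given to its nearest protein-coding gene, 11189 genes received at least 1, with a median of 2. Myc, the growth-promoting transcription factor, received most, 40 peaks spread over 1259 kb, of which 35 were over 50 kb away. The start of any kind nearest to 19 of them was that of H2afy3 and to 7 of them that of the non-coding gene Pvt1. The highest of the 40 was 513710 bp downstream (pileup 169, 27.0-fold). Of the 40, 32 overlapped a TEAD peak at 7 d, as 72.2% of all gained peaks did.

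Other genes followed closely. Lpp and Zbtb20 had 36 each, Itpr1 and Sox5 28, Arid1b, Nfib and Pik3r1 27, and Akap13, Ppap2b and Ptprg 26. Zbtb20 and Nfib encode transcription factors, Lpp a focal adhesion protein, Itpr1 the calcium channel of the endoplasmic reticulum and Pik3r1 the regulatory subunit of PI3-kinase. All 28 gained peaks of Itpr1 lay within 273 kb and had Itpr1 as the nearest start of any kind. Among the others just named, the gene was the nearest start of any kind for between 7 of 28 peaks (Sox5) and 25 of 26 (Akap13). Of the Sox5 peaks 20 were over 50 kb from the nearest protein-coding start, and of the Akap13 peaks 4. Whether the counts follow the length of sequence to which each gene is nearest was not tested. Peaks of these genes were low, with medians of 29 to 34.5. The densest 100 kb windows held 21 gained peaks on chromosome 19 (Frmd8, Slc25a45, Tigd3 and Dpf2), 18 on chromosome 15 (Tef, Tob2 and others) and 17 each at Igf1, Nfia and Scarb1.

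Shared sites kept much of their order. Over 5602 pairs of a WT peak with its highest 3 d peak, the rank correlation of pileup was 0.703, a description over sites that share libraries and a control. The median change was 12.8 percentile points, 42.3% of the pairs moved by at most 10, and 209 by more than 50.

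The 6 pairs that rose most were low in WT by the way they were chosen, since only a low rank can rise so far. The promoter of Phldb1, a cytoskeletal adaptor, went from a pileup of 30 (3.99-fold) to 186 (30.5-fold), which moved it from percentile 8.69 to 94.6 of the pairs. Peaks near Clint1, Skp2, Fam105a, Aco1 and Tns3 rose by 75.8 to 79.1 points, with WT folds of 3.44 to 4.09 and 3 d folds of 20.2 to 21.3. Skp2 encodes the ubiquitin ligase subunit that removes the cell cycle inhibitor p27, and Tns3 a focal adhesion protein. Of these 6, the peaks of Phldb1, Skp2 and Tns3 overlapped a YAP peak at 7 d. All 6 lay in the highest decile of pileup at 3 d, where 24.3% of shared peaks did so.

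The 6 that fell most went from percentiles of 74.3 to 87.1 in WT to 1.02 to 13.5 at 3 d. The nearest starts were those of SNORA17, Trpm8, 2610307P16Rik, Adamts9, 3110045C21Rik and Ednrb, by distance only. Those of 2610307P16Rik, Adamts9 and Ednrb were over 50 kb from the peak. The WT pileups of the 6 were 50 to 63 and their 3 d pileups 28 to 45, and only the Trpm8 peak overlapped a YAP peak at 7 d. In deciles 3 to 7 of the 3 d list, with pileups of 28 to 46, 2.16 to 4.35% of shared peaks did so. With the pairs ordered by rank change and split into 3 sets of like size, the TEAD core was in 52.8% of the falling, 53.4% of the middle and 48.1% of the rising set, and 7.17, 19.3 and 14.4% overlapped a YAP peak at 7 d. The sets also differed in height at 3 d, with median percentiles of 31.0, 66.1 and 57.9, and YAP overlap of shared peaks was 4.18% in decile 9 and 24.3% in decile 10, and the part of height in these shares was not tested.

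**Figure D5:**
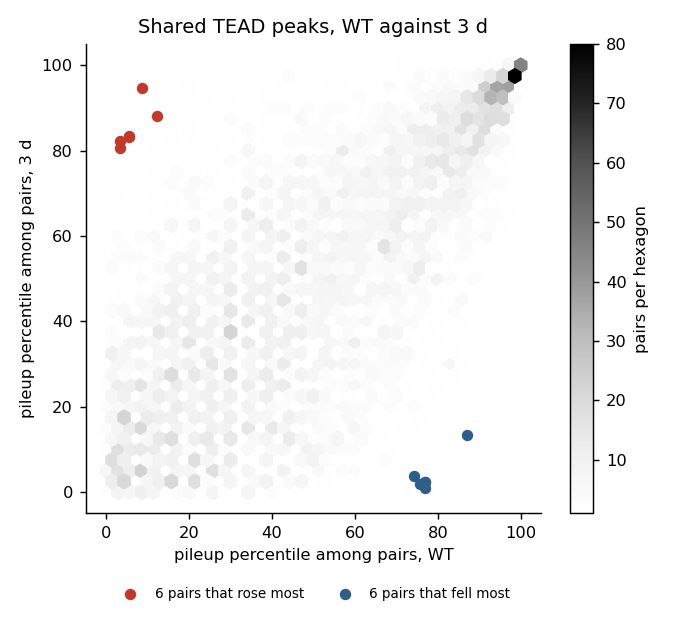
Pileup percentile among the 5602 pairs in WT (horizontal) and at 3 d (vertical), as hexagons shaded by the number of pairs, with the 6 pairs that rose most and the 6 that fell most. The rising pairs lie at or below percentile 12.2 in WT and above 80 at 3 d.

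The 93 WT peaks that were not found at 3 d were low in the WT list, with a median percentile of 16.9. The 5 of highest pileup were 2 on the mitochondrial genome, 2 at AY036118 on chromosome 17 and 1 at Gm10801 on chromosome 2. All 5 had pileups of 491 to 801 and folds of only 1.57 to 1.70, and each overlapped a TEAD peak at 7 d. Of the 93, 34 did so.

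The later lists, which the rule did not use, give a further readout of the gained sites. A TEAD peak at 7 d overlapped 72.2% of gained peaks (71.7 to 72.7) and 95.9% of shared peaks (95.4 to 96.4). The share in gained peaks went from 36.9% in the lowest decile of pileup to 99.7% in the highest. YAP peaks at 3 d overlapped 5 gained (0.0162%) and 49 shared peaks (0.865%). These counts also depend on how many YAP peaks were called at 3 d, which is not given here. YAP peaks at 7 d overlapped 1.74% of gained (1.60 to 1.89) and 13.5% of shared peaks (12.7 to 14.5), but in the highest decile 24.9% of gained and 24.3% of shared peaks. The 7 d livers are other animals of the induced genotype, called against the control library that also served the 3 d and WT lists.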

How the data were processed

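TEAD ChIP-seq was made from formaldehyde-fixed liver, 3 samples in WT and 3 at 3 d. According to the study's methods and the submitters' processing notes, the authors merged the samples of a group, aligned reads to mm9 with BWA 0.6.2, removed duplicates and called peaks with MACS2 2.0.9. Per the file headers, the p-value cutoff was 1e-05, tags were 51 bp and the control library of 167176362 tags, which the methods take from published data, was the same for both lists. The deposited pileup is a signal in extended fragments, not scaled by depth. The deposited fold enrichment is the ratio of pileup to local background, and −log10 of the p-value and of the q-value were written by the authors' caller.

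From these, peaks were matched by 1 bp, ranked by pileup within a list, and placed by summit on the GENCODE annotation of NCBIM37, within whose chromosome lengths all peaks fell; the 26 peaks of the 3 d list on other sequences were left out there. Motifs were searched as exact letters on chromosomes 1 to 19 and X. Intervals are 95% Wilson intervals and cover counting over peaks only, since depth is known only as total tags and peaks are not replicates. Overlap and motif steps were tested on simulated data. Python 3.11.15, NumPy 2.4.6, pandas 2.3.3, SciPy 1.17.1, matplotlib 3.10.9 and samtools 1.23.1 were used. The gained class, the gene lists and the rule for named genes were chosen with earlier results of these data known. The rule named the 12 highest gained peaks, 6 pairs that rose and 6 that fell most, the 10 genes nearest to most gained peaks with ties, the 5 highest WT peaks not found, up to 5 genes per list and all genes of the YAP target and TEAD lists, the 3 next highest new promoters and the peaks at the edge of the overlap rule. Further list genes, and those without a peak, were named after their values were seen, as was the spacing of paired cores chosen. The YAP list of WT livers was not used. Alternatives covered the overlap, the peaks kept, depth, fragment length, promoter interval and motif. Some named genes are not reported here.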

Additional observations from a re-analysis of the deposited data

How the results depend on the processing

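No paired analysis was possible because the samples of each group were merged before peaks were called, and for the same reason no sample could be left out in turn. The gained share, 84.5%, was 85.5% with summits at most 200 bp apart, 81.2% with no WT peak within 1000 bp, 86.7% with at least 5-fold enrichment, 83.4% with a −log10 p-value of at least 10, 83.7% after rescaling to the WT tag number and 36.1% among as many of the strongest 3 d peaks as WT peaks. The last setting keeps high peaks only. The promoter share of gained peaks, 30.5%, was 27.0% with 1000 bp on either side of the start, 28.5% with protein-coding genes, 29.3% at 5-fold and, in settings chosen after seeing the data, 31.7% by any overlap and 18.9% among the strongest peaks. The share with the TEAD core, 26.7%, was 19.3% within 50 bp, 34.2% within 200 bp, 11.995% with 7 letters, 33.5% at 5-fold, 27.4% after rescaling and 50.6% among the strongest peaks, also chosen after seeing the data. The median percentile of shared peaks, 89.6, was 90.4 with summits at most 200 bp apart. The cause of these shifts was not tested. The count of newly occupied promoters stayed between 5007 and 6756 in its 5 alternatives, and the rank correlation between 0.694 and 0.708. At 5-fold or more, the newly occupied promoters were 19 of 30 for hepatocyte function genes, 10 of 20 for hepatocyte transcription factors and 44 of 79 for ribosomal protein genes, beside 22.4% of all genes, and 3 of 21 for biliary and progenitor genes.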
